A study of Mus musculus with 19 samples.

Results

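Chemokines are small secreted proteins that bind receptors on the surface of leukocytes and other cells and guide where those cells go. The 58 genes described here, 38 ligands and 20 receptors, were every gene of the 32245 listed across the matrices whose symbol began with Ccl, Cxcl, Ccr, Cxcr, Cx3c, Xcl or Xcr. Their RNA was described in 5 cell classes of 4 tumour matrices and, for the 8 members listed there, in cultured cells.

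The cells were Melan-a, mouse melanocytes that grow without limit in culture, either unedited or carrying a CRISPR knockout of Bap1. Bap1 is a nuclear deubiquitinase that is lost in many uveal melanomas. Cultured lines were the unedited parental line and 4 knockout clones, each clone a single line, with 2 cultures a line and no drug treatment. Tumours came from Melan-a cells, wild type or knockout, injected under the skin or into the eye of syngeneic mice. They were dissociated and sequenced as whole-tissue suspensions of single cells. The 4 matrices, labelled WT or KO and skin or ocular, are filed under one GEO sample of multiplexed tumours, and their genotype and site are read from the names of the matrices. The design text gives 1 tumour for each genotype and site, so no difference between them has a replicate and none was tested. Neither the clone behind each knockout tumour, nor the strain, sex or age of the mice, nor the time of harvest, is given in the sources used here. The labels put all samples in one batch. The design text calls the cultures biological replicates but does not say what they shared, so p-values measure the spread between these cultures only.

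Most CC ligands named here draw monocytes, macrophages and lymphocytes through receptors such as Ccr1 and Ccr2. The CXC ligands with the ELR motif, among them Cxcl1, Cxcl2, Cxcl3 and Cxcl5, draw neutrophils through Cxcr2. Cxcl12 acts through Cxcr4 and is made mainly by stromal cells, while Cxcl16 and Cx3cl1 are made as membrane-bound proteins. Many inflammatory members are switched on by interleukin 1, tumour necrosis factor and NF-kappa B signalling.

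Cells were placed in a class by their marker genes, none of which is a chemokine gene. Each class is given in the order melanocytic, macrophage, neutrophil, fibroblast and endothelial. The matrix labelled WT skin held 6897, 1587, 880, 198 and 58 such cells. That labelled KO skin held 9360, 1468, 227, 91 and 174. That labelled KO ocular held 5214, 549, 1541, 60 and 67, and that labelled WT ocular held 4190, 1247, 2667, 843 and 727. Levels are CPM, the counts scaled to a fixed total, of the unique molecular identifiers (UMIs, 1 per captured RNA molecule) summed over the cells of a class. A UMI count does not grow with gene length, but capture differs between genes, so different genes are set side by side as shares of UMIs only. Their 95% intervals are exact Poisson intervals and cover counting error only. Median UMIs per neutrophil were 851.5, 1061, 2058 and 1389 in the same order of matrices, the lowest of the 5 classes in each.

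Libraries stood apart in 2 ways. The matrix labelled WT ocular listed 32245 genes against 19053 in the other 3, which looked like a probe set, so its levels are not set against theirs. Its melanocytic cells also carried genes that mark the knockout matrices: Mrgprb1 stood at 355.8 CPM there, at 487.1 in KO skin and 968.8 in KO ocular, and at 0.693 in WT skin. Sez6l stood at 99.1 CPM there, at 57.3 and 83.8 in KO skin and KO ocular, and at 0.850 in WT skin. The genotype in that label thus goes against these genes. In culture Sez6l had 4376 and 4230 normalised reads in clone 2 and at most 4.59 in any other line. Mrgprb1 had 6.67 and 6.16 in the parental line, 18.4 and 10.1 in clone 4 and 1001 to 9042 in the other clones. Both genes thus differed between knockout clones and did not mark the knockout as such. Bap1 itself did not separate the labels, at 42.2, 46.5 and 32.9 CPM in melanocytic cells of WT skin, KO skin and KO ocular. In that matrix 87.4% of the melanocytic class lay near the limit on marker UMIs, so the class there is a range and not a resolved type. No whole barcode was shared between matrices, and 1793 to 2417 first 16-base stretches were shared between pairs of the other 3.

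All 58 members were listed in the matrix labelled WT ocular and 53 in the others, which lacked Ccl21b, Ccl21c, Ccl27a, Ccl27b and Cx3cr1. 3 of these, Ccl21b, Ccl21c and Ccl27b, had no UMI in any class or cell. Of the 58 genes, 29 reached 50 CPM in at least 1 class of at least 1 matrix, 22 ligands and 7 receptors. The other 29 stayed below that level in all 5 classes, 13 receptors and 16 ligands. Among them were the lymphocyte receptors Ccr4, Ccr6, Ccr7, Ccr8, Cxcr3, Cxcr5 and Cxcr6 and the interferon-induced Cxcl9 and Cxcl10, the latter at most 22.7 CPM.

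**Figure D1:**
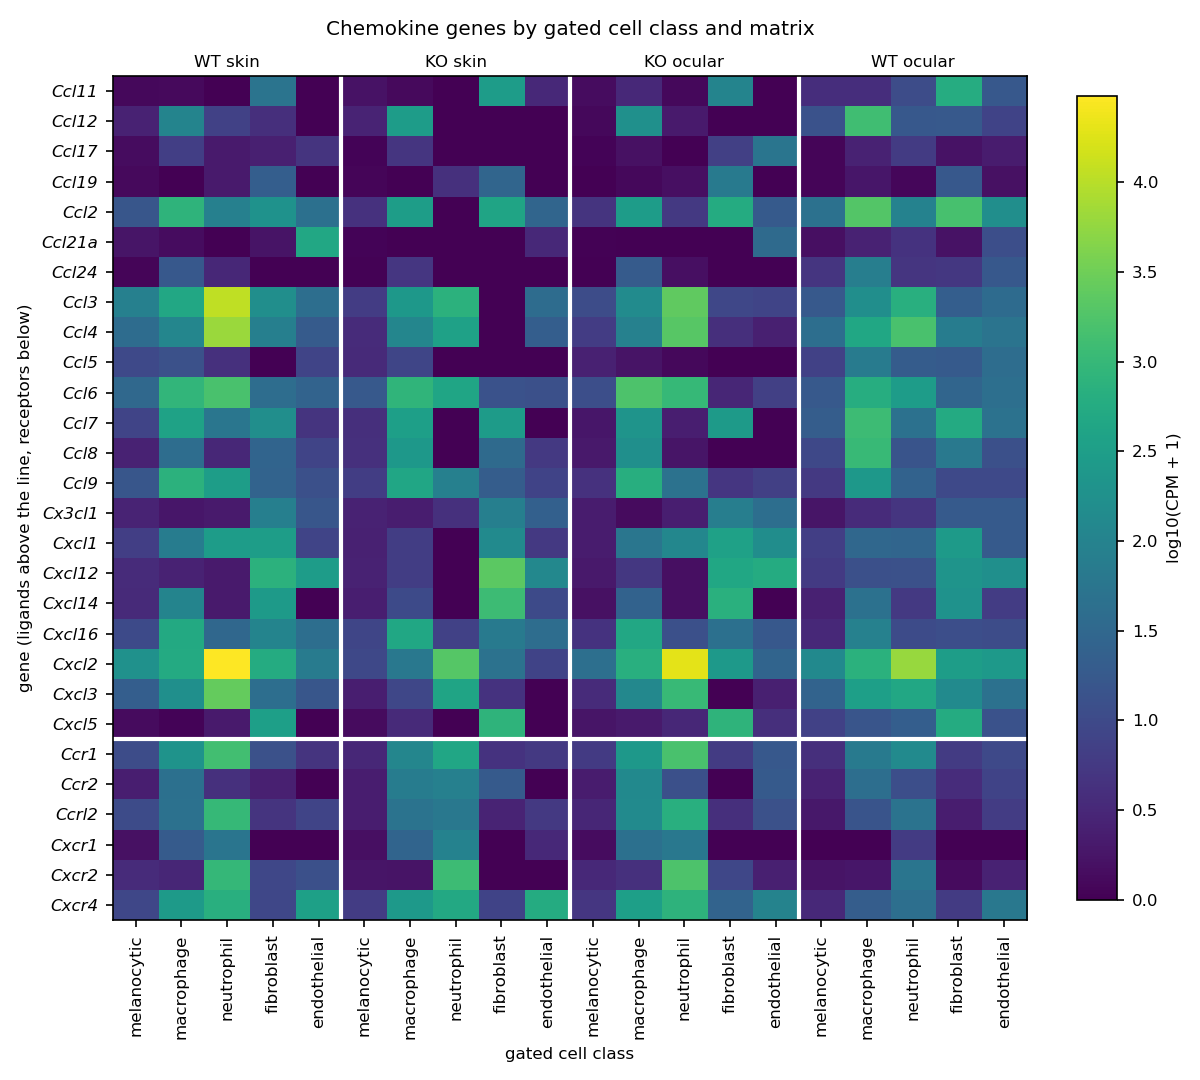
Level of 28 of the 29 members that reached 50 CPM, as log10(CPM + 1) by colour, in 5 gated cell classes (columns) of 4 matrices; ligands lie above the white line and receptors below it. Cxcl2 in neutrophils has the highest level of each matrix except KO skin, where Cxcl12 in fibroblasts does, and the melanocytic columns reach 50 CPM only for Cxcl2 and Ccl3 in WT skin and Cxcl2 in WT ocular.

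Members were spread unevenly over the classes, and most had no single leading class. A member was said to be led by a class when its level there was at least 2-fold that in each of the other 4 classes, in every matrix with 10 UMIs of it in the highest class. Of the 44 members with that many UMIs, 6 were led by neutrophils, against 2.03% of all 16730 genes so read. These were the ligands Cxcl2, Ccl3, Ccl4 and Ccl22 and the receptors Cxcr2 and Cxcr5. Ccl22 and Cxcr5 reached at most 11.2 and 17.1 CPM in any of the 5 classes. Dendritic cells and B and plasma cells, which were not compared here, carried more of Ccl22 and Cxcr5, as given below. Macrophages led 5 (background 1.29%), among them the monocyte attractants Ccl12 and Ccl9, the scavenger ligand Cxcl16 and the receptor Cx3cr1. Fibroblasts led 4 (background 3.13%): the eosinophil attractant Ccl11, the neutrophil attractant Cxcl5, Cxcl14 and Ccl27a. Endothelial cells led 1 (background 2.95%), Ccl21a, a ligand of Ccr7 known from lymphatic endothelium. Melanocytic cells led none, against 1.73% of all genes, and 28 members had no single leading class. Ccl22, Cx3cr1 and Ccl27a were called from the matrix labelled WT ocular alone.

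Without the matrix labelled WT ocular, the counts were 7 for neutrophils (background 2.63%), 4 for macrophages (1.39%), 4 for fibroblasts (4.21%), 1 for endothelial cells (3.46%) and 1 for melanocytic cells (3.04%). Ccr1 and Cxcl3 then joined the neutrophil set and Cx3cl1 the fibroblast set. The melanocytic gene was Ccl25, a ligand of Ccr9, the one member that passed the filter on low values in the cultured lines. A gene with no UMI in a class was given a floor of 3 UMIs there, so the smallest classes limit which low genes could be called.

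Neutrophils held the highest sum of the family in each matrix. Summed over all members, they carried 57156 CPM in WT skin, 6479 in KO skin and 31176 in KO ocular. Cxcl2 made up the largest part in each. The same sums were 5757, 4170 and 5865 CPM in macrophages, 3294, 5810 and 3818 in fibroblasts, 1511, 934.5 and 1111 in endothelial cells, and 496, 102.8 and 126.8 in melanocytic cells. In the matrix labelled WT ocular they were 9908 in neutrophils, 8617 in macrophages, 4691 in fibroblasts, 1134 in endothelial cells and 397.1 in melanocytic cells. The order of the classes was thus the same in 3 of the 4 matrices. In KO skin fibroblasts came second, ahead of macrophages.

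Neutrophils of the matrix labelled KO skin had less of the inflammatory ligands than those of WT skin. Cxcl2, which draws further neutrophils, stood at 30272 CPM in WT skin, 2030 in KO skin and 19550 in KO ocular. It was 14.9-fold lower in KO skin than in WT skin (95% interval 13.8 to 16.1) and 9.63-fold higher in KO ocular than in KO skin (8.92 to 10.4). Both comparisons share the KO skin matrix. Ccl3, a ligand of Ccr1, stood at 11449, 754.4 and 2465 CPM in the same order, 15.2-fold lower in KO skin (13.4 to 17.3). Ccl4, which draws monocytes and lymphocytes, stood at 6410, 366.3 and 2037 CPM, 17.5-fold lower in KO skin (14.6 to 21.2). For these 3 ligands KO skin was the lowest matrix and WT skin the highest in gated cells, with intervals that did not overlap. By clusters, which put 1190 cells of WT skin in the class in place of 880, WT skin stood at 19006 CPM for Cxcl2, 6660 for Ccl3 and 4037 for Ccl4. Cxcl2 in KO ocular then lay above WT skin, while KO skin was still the lowest of the 3 matrices for all 3 ligands. The annotated spans of Ccl3 and Ccl4 overlap on chromosome 11, and how counts in the shared stretch were assigned was not tested.

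Other ligands of these cells were lower in KO skin too. Cxcl3 stood at 2606, 419.1 and 1032 CPM, 6.22-fold lower in KO skin than in WT skin (5.23 to 7.45). Ccl6, a monocyte and macrophage attractant of rodents, stood at 1534, 425.3 and 1007 CPM, 3.61-fold lower (3.03 to 4.33). Ccl9 stood at 305.6, 86.9 and 47.1 CPM and was the one of these ligands that was lowest in KO ocular. Cxcl1 stood at 304.5 CPM in WT skin and 115.7 in KO ocular and had 0 UMIs in KO skin. Set against a floor of 3 UMIs over the class, Cxcl1 was at least 32.7-fold lower in KO skin than in WT skin. The monocyte attractants Ccl2 and Ccl7 had 0 UMIs in KO skin too and 81 and 53 in WT skin, at least 9.39-fold and 6.14-fold lower.

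**Figure D2:**
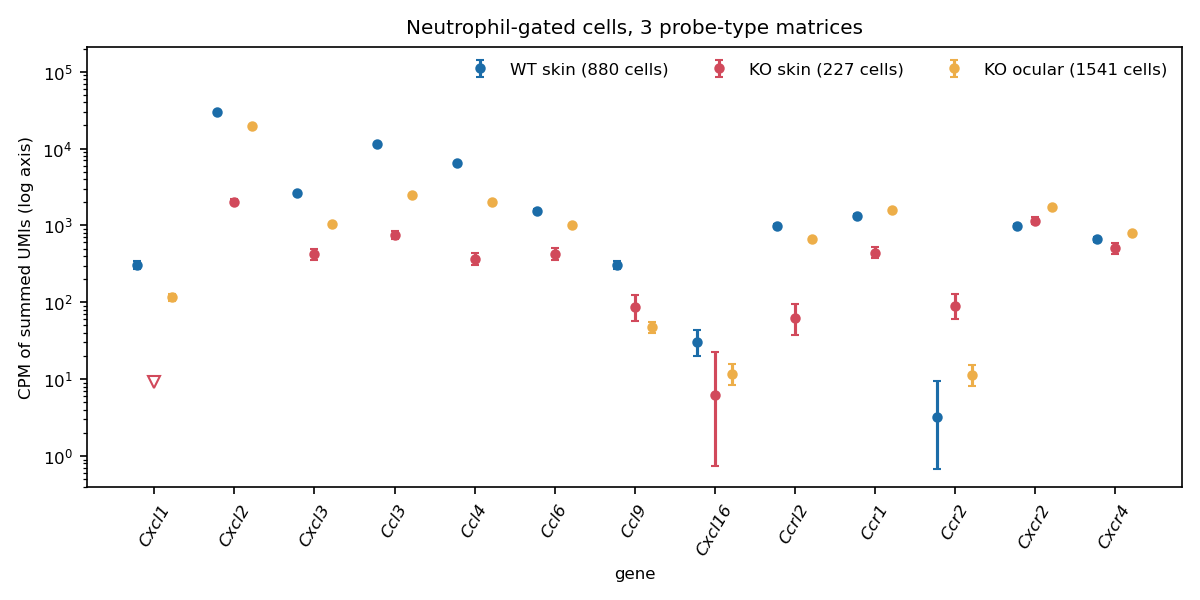
CPM of summed UMIs (log axis) of 13 members in neutrophil-gated cells of the matrices labelled WT skin, KO skin and KO ocular; points are levels, bars exact Poisson 95% intervals, and the open triangle marks the 3-UMI floor of Cxcl1, which had no UMI. KO skin lies lowest for Cxcl1, Cxcl2, Cxcl3, Ccl3, Ccl4, Ccl6, Ccrl2 and Ccr1, while the 3 points of Cxcr2, and those of Cxcr4, each span less than 2-fold.

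Receptors of neutrophils did not all go with the ligands. Cxcr2, the receptor for Cxcl1, Cxcl2, Cxcl3 and Cxcl5, stood at 980.4 CPM in WT skin, 1158 in KO skin and 1722 in KO ocular. Its KO skin to WT skin ratio was 1.18 (95% interval 1.04 to 1.33). Cxcr4, which holds neutrophils in the marrow, stood at 660.8, 503.0 and 798.0 CPM. Cxcr1, a second receptor for such ligands, stood at 54.0, 96.2 and 60.02 CPM, from 50, 31 and 223 UMIs. Cxcr1, Cxcr2 and Cxcr4 thus differed by less than 2-fold between KO skin and either other matrix in gated cells. By clusters the KO ocular to KO skin ratio was 2.88 for Cxcr2 and 2.33 for Cxcr4, and the KO skin to WT skin ratio of Cxcr2 turned to 0.929. Ccr1, a receptor for Ccl3 and Ccl9, stood at 1322, 440.9 and 1582 CPM, 3.00-fold lower in KO skin (2.52 to 3.59). Ccrl2, a receptor that binds chemerin without signalling, stood at 992.3, 62.1 and 661.3 CPM, 15.98-fold lower in KO skin (10.3 to 26.3). Ccr2, the receptor for Ccl2, ran the other way at 3.24, 90.03 and 11.3 CPM, from 3, 29 and 42 UMIs. It was the one member at least 2-fold higher in neutrophils of KO skin.

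Of the 18 members with enough UMIs to compare in neutrophils of KO skin and WT skin, 13 were at least 2-fold lower, against 9.39% of 6430 genes. The 1 higher member compares with 26.2% of genes. The median ratio was 0.241 for the members and 1.38 for all genes. Between the KO matrices, 10 of 19 members were at least 2-fold higher in KO ocular than in KO skin (background 8.83%) and 1 was lower (background 28.9%), with a median ratio of 2.37 against 0.694 for all genes. Of those 10, Ccr3 and Cxcr5 rested on 1 UMI each in KO skin. The neutrophil class of KO skin was small, and with cells of at least 1000 UMIs only 123 of its 227 cells were left. The Ccl3 ratio of KO skin to WT skin then moved from 0.0659 to 0.0289, that of Ccl4 from 0.0572 to 0.0312 and that of Ccrl2 from 0.0626 to 0.0213. The ratios of KO ocular to KO skin then became 7.91 for Ccl3, 10.3 for Ccl4 and 40.4 for Ccrl2.

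The share of cells followed the level. Cxcl2 had a UMI in 87.8% of neutrophils of WT skin (exact 95% binomial interval 85.5% to 89.9%), 22.9% of those of KO skin (17.6% to 28.9%) and 70.8% of those of KO ocular (68.5% to 73.1%). These intervals too cover counting error only. At a common depth of 500 UMIs per cell, which every cell had, the expected shares were 85.5%, 18.3% and 64.8%. Melanocytic cells had a Cxcl2 UMI in 27.8% (26.8% to 28.9%), 1.75% (1.496% to 2.04%) and 20.6% (19.5% to 21.7%) of cells at median depths of 5142, 4591 and 9287 UMIs, or 7.40%, 0.290% and 1.98% at 500 UMIs. In KO skin the 5% of neutrophils with the most Cxcl2 held 75.2% of its UMIs, against 23.7% in WT skin and 29.2% in KO ocular, so most of it came from few cells in KO skin. Cxcr2 had a UMI in 48.2% (44.8% to 51.5%), 68.3% (61.8% to 74.3%) and 84.9% (83.0% to 86.6%) of neutrophils, or 34.4%, 45.2% and 54.5% at 500 UMIs.

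Other genes of these neutrophils differed as well. Of 15 measured genes of a list of NF-kappa B and interferon pathway inducers, 7 were at least 2-fold lower in KO skin than in WT skin, Il1a, Il1b, Il6, Nfkbia, Rel, Tnf and Tnfaip3, and 2 were higher, among them Irf1, against 9.39% lower and 26.2% higher among all genes. Il1b stood at 15911, 3251 and 17171 CPM in WT skin, KO skin and KO ocular. In KO ocular 6 of 14 were higher than in KO skin, Il1a, Il1b, Nfkbia, Rel, Tnf and Tnfaip3, and none was lower, against 8.83% higher and 28.9% lower among all genes. Ngp and Ltf, proteins of the granules of immature neutrophils, stood at 440.6, 1621 and 473.7 CPM and at 130.7, 729.6 and 198.1 CPM. The marker S100a8 stood at 34591, 55036 and 41076 CPM. Median melanocytic marker UMIs per 10000 were 44.0, 34.3 and 19.0 in these cells, and median macrophage marker UMIs were 0, 0 and 2.48. The part of maturation, depth and cell makeup in the neutrophil differences was not tested.

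Cxcl3, Cxcl15, Cxcl1 and Cxcl2 lie in that order on the forward strand of chromosome 5 between positions 90786101 and 90905938 of GRCm38.p6. Their promoters are shown because Cxcl1, Cxcl2 and Cxcl3 were lower together in KO skin in neutrophils and macrophages. Their neighbour Cxcl15 was lowest in KO skin too. It had 826, 2 and 52 UMIs over all cells of WT skin, KO skin and KO ocular. Each line gives the 250 bases before the annotated RefSeq start, 5′ to 3′, at chr5:90785851-90786100 for Cxcl3, chr5:90794284-90794533 for Cxcl15, chr5:90890995-90891244 for Cxcl1 and chr5:90903649-90903898 for Cxcl2. Capitals mark matches on either strand to GGGNN followed directly by TTTCC, a 10-base form of the NF-kappa B site chosen after the values were known.
Cxcl3: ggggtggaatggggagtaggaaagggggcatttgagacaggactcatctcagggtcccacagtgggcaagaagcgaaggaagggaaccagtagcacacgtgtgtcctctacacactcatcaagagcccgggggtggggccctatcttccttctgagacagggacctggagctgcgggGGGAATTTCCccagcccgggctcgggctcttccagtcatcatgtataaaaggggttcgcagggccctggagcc
Cxcl15: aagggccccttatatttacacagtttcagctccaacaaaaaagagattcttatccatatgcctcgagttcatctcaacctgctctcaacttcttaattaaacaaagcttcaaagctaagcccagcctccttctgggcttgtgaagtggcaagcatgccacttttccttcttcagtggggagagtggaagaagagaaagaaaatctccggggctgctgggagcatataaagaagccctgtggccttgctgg
Cxcl1: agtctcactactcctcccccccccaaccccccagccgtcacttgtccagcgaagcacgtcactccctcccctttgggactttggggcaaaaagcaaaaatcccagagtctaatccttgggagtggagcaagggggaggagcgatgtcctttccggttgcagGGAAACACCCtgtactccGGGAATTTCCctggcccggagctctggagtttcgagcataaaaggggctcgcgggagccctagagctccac
Cxcl2: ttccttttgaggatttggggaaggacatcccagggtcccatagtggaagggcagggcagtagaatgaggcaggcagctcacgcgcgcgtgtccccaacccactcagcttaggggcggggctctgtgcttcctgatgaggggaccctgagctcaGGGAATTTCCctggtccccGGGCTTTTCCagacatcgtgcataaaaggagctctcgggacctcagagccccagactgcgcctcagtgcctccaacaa
Cxcl3 held 1 match, whose first base lies 73 bases before the start. Cxcl1 held 2, at 89 bases on the reverse strand and 71 on the forward strand, which do not overlap. Cxcl2 held 2 on the forward strand, at 97 and 78 bases. Cxcl15 held none. The window searched, 250 bases before to 50 after a start, held a match in 1.63% of 32851 RefSeq promoters, and in 6 of the 52 windows of the 43 members in that table, 1 window for each of 6 members. The other 3 members with a match were Ccl9, Ccl20 and Ccr3. Those of Ccl3, Ccl6, Ccr1 and Ccrl2, which were also lower in neutrophils of KO skin, held none. A match says only that these letters are present.

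Macrophages carried 2 groups of ligands that differed in opposite directions. The neutrophil attractants were lower in KO skin than in WT skin. Cxcl2 stood at 539.9 CPM in WT skin, 61.2 in KO skin and 664.0 in KO ocular, 8.82-fold lower in KO skin (95% interval 7.995 to 9.76). Cxcl3 stood at 171.2, 8.01 and 120.6 CPM, 21.4-fold lower (16.4 to 28.4), and Cxcl1 at 73.8, 5.58 and 57.0 CPM, 13.2-fold lower (9.59 to 18.8). Cxcl14, an epithelial and stromal ligand, stood at 105.6, 9.15 and 25.0 CPM. For Cxcl1, Cxcl2 and Cxcl3 the KO ocular level lay within 1.5-fold of the WT skin level, and KO skin was the low matrix. The 5% of macrophages with the most Cxcl2 held 78.1% of its UMIs in WT skin, 100% in KO skin and 85.1% in KO ocular, so its level rested on few cells in all 3. By clusters Cxcl2 was 4.37-fold lower in KO skin and Cxcl14 6.85-fold lower.

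A pair of monocyte attractants of the Ccl2 cluster were higher in KO skin. Ccl8, a ligand of Ccr8 in mice, stood at 39.3, 248.1 and 170.4 CPM, 6.31-fold higher in KO skin than in WT skin (5.66 to 7.05). Ccl12, a mouse ligand of Ccr2, stood at 102.1, 296.3 and 180.1 CPM, 2.90-fold higher (2.69 to 3.13). Their neighbour Ccl2, the main ligand of Ccr2, was 2.61-fold lower at 809.8, 310.0 and 298.4 CPM (2.49 to 2.74). Ccl7, which lies between Ccl2 and Ccl11, stood at 374.4, 343.5 and 206.4 CPM, and its ratio of 0.917 turned to 1.16 when cells were classed by clusters. These 5 genes lie on chromosome 11 between positions 82035577 and 82116799.

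The ligands that follow differed by less than 2-fold between macrophages of KO skin and WT skin. Ccl6 stood at 895.8, 838.8 and 1676 CPM, and its ratio of KO skin to WT skin, 0.936, became 1.01 with a gate of 1 marker more and 1.27 by clusters. Ccl9 stood at 757.3, 455.9 and 637.9 CPM and Cxcl16 at 521.0, 473.0 and 479.1 CPM, the latter within 1.10-fold between the skin matrices. Ccl3 stood at 483.3, 243.8 and 142.2 CPM, and Ccl4 at 114.9, 113.4 and 91.5. Among receptors, Ccr2 stood at 44.0, 75.2 and 135.4 CPM, Ccr1 at 196.0, 112.3 and 240.1, and Cxcr4 at 279.6, 258.2 and 334.1. Of these 3, Cxcr4 lay within 2-fold in all 3 matrices.

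**Figure D3:**
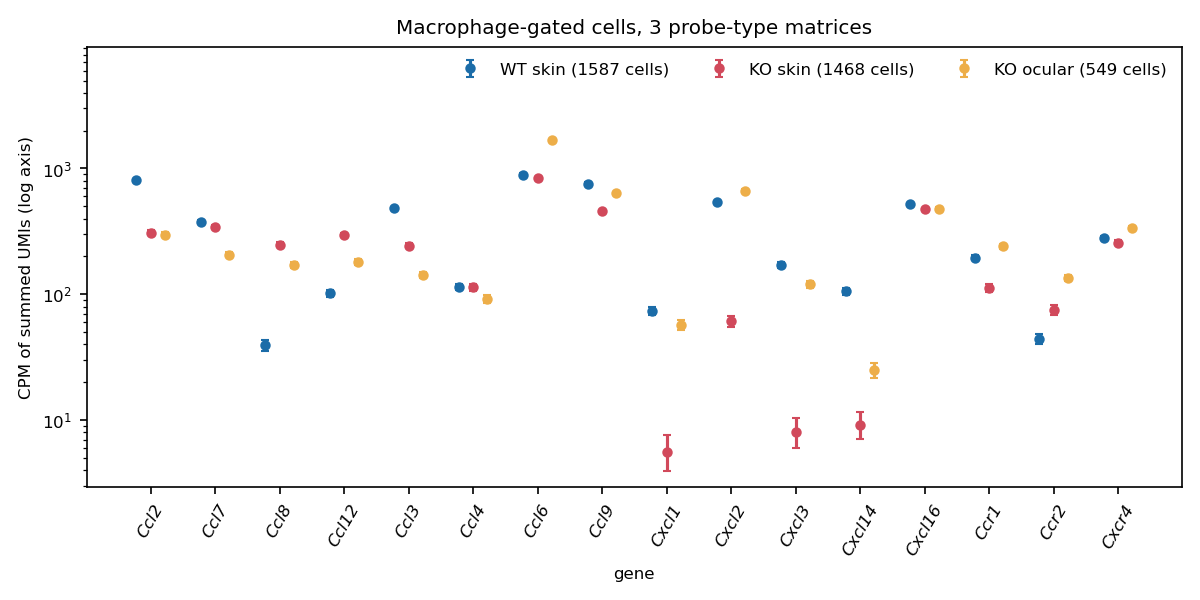
CPM of summed UMIs (log axis) of 16 members in macrophage-gated cells of the matrices labelled WT skin, KO skin and KO ocular; points are levels and bars exact Poisson 95% intervals. Cxcl1, Cxcl2, Cxcl3 and Cxcl14 lie lowest in KO skin, Ccl8 and Ccl12 lie highest there, and Cxcl16 lies between 473 and 521 CPM in all 3.

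Of 28 members compared in macrophages of KO skin and WT skin, 4 were at least 2-fold higher (background 10.1%) and 7 lower (5.39%). The higher ones were Ccl8, Ccl12, Ccl25 and Cxcl12, the last from 18 and 38 UMIs. By clusters 31 could be compared, and 11 of them were lower (background 8.71%). The Cxcl3 ratio, 0.0468, became 0.0266 with the stricter gate and 0.226 by clusters, and the Ccl8 ratio became 15.9 by clusters. In KO ocular 9 of 30 were higher than in KO skin (4.83%) and 6 lower (11.9%). Higher were Cxcl1, Cxcl2 and Cxcl3 at 10.2-fold, 10.9-fold and 15.1-fold, and Ccrl2 at 2.75-fold. Lower were Ccl5, Cxcl9, Cxcl10, Ccl17, Ccl25 and Cxcl5, each from at most 58 UMIs a matrix. Neutrophil marker UMIs per 10000 in the macrophage class had medians of 2.04, 1.10 and 2.64, so they were also lowest in KO skin. Their part in the Cxcl2 difference was not tested. Melanocytic marker UMIs per 10000 in the macrophage class had medians of 39.2, 53.9 and 22.7, highest in KO skin. The part of melanocytic RNA in the Ccl25 differences was not tested.

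Fibroblasts carried Cxcl12, the ligand of Cxcr4, at 758.6 CPM in WT skin, 2292 in KO skin and 467.2 in KO ocular. It was 3.02-fold higher in KO skin than in WT skin (95% interval 2.78 to 3.28) and 4.91-fold lower in KO ocular than in KO skin (4.41 to 5.47), or 2.39-fold by clusters. Cxcl14 stood at 271.1, 1184 and 696.2 CPM and Ccl11 at 52.6, 297.0 and 102.5 CPM, 4.37-fold (3.84 to 4.98) and 5.65-fold (4.25 to 7.56) higher in KO skin than in WT skin. KO skin was thus the highest matrix for these 3 stromal ligands.

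The class held few cells, and some of its values rested on a few of them. Cxcl5 stood at 340.8, 832.3 and 815.8 CPM. Without the 5% of cells with the most UMIs in each matrix it stood at 194 CPM in KO skin and 296 in KO ocular, and its ratio of KO skin to WT skin turned from 2.44 to 0.537. Cxcl14 in KO ocular then stood at 182 CPM and Ccl11 at 208. The Cxcl14 ratio of KO ocular to KO skin then moved from 0.588 to 0.109 and the Ccl11 ratio from 0.345 to 0.582, and by clusters the Ccl11 ratio was 1.18. The Cxcl12 ratio of KO skin to WT skin ran from 2.58 to 3.55 over all settings, that of Cxcl14 from 3.37 to 5.55 and that of Ccl11 from 2.56 to 6.80.

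Fibroblasts also carried monocyte and neutrophil attractants. Ccl2 stood at 192.6, 419.7 and 570.7 CPM, and its ratio of KO skin to WT skin, 2.18, was 1.16 by clusters. Ccl7 stood at 162.2, 291.7 and 270.3 CPM, and Cxcl1 at 315.6, 140.5 and 371.7. Cxcl1 was thus lowest in KO skin in fibroblasts too, 2.25-fold below WT skin (1.76 to 2.89), or 1.46-fold by clusters. Cx3cl1, the ligand of Cx3cr1, was level at 85.9, 83.6 and 82.4 CPM. Ccl19, a ligand of Ccr7, stood at 20.7, 28.5 and 67.3 CPM from 16 to 67 UMIs. Of 17 members compared, 5 were at least 2-fold higher in KO skin (background 12.2%) and 6 lower (8.79%). The lower ones were Cxcl1, named above, and Cxcl2, Cxcl3, Ccl3, Ccl4 and Ccl6, whose levels were higher in neutrophils or macrophages. In WT skin the fibroblast level of Cxcl2 and Ccl3 was 1.85% and 1.42% of the neutrophil level. Against KO skin, KO ocular had 4 of 12 that were higher (16.2%) and 2 that were lower (14%). By clusters 25 members could be compared, and 17 of them were higher (background 12.8%).

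Endothelial cells had 2 members above 50 CPM in all 3 matrices. Cxcr4 stood at 349.9 CPM in WT skin, 581.8 in KO skin and 100.8 in KO ocular, and its ligand Cxcl12 at 297.8, 121.4 and 566.5 CPM. Receptor and ligand thus ran in opposite order across the 3 matrices, from few cells: Cxcl12 had a UMI in 16, 11 and 22 endothelial cells, and the top 5% of cells held 50%, 96.2% and 76.7% of its UMIs. Cxcl12 was 2.45-fold lower in KO skin than in WT skin (95% interval 1.71 to 3.54) and 4.67-fold higher in KO ocular than in KO skin (3.49 to 6.34). Ccl21a stood at 476.4 CPM in WT skin from 128 UMIs, 2.29 in KO skin from 1 UMI and 34.1 in KO ocular from 23 UMIs. The ratio of WT skin to KO skin was 208 (36.7 to 8279), and it ran from 36.2 to 231 over all settings. Cxcl1 stood at 7.44, 4.58 and 157.2 CPM. Ccl17, a ligand of Ccr4, passed 50 CPM in this class of KO ocular alone, at 53.4 CPM from 36 UMIs, with 0 in KO skin and 1 in WT skin. Of 7 members compared between KO skin and WT skin, 0 were at least 2-fold higher (background 9.93%) and 3 lower (7.6%). Of 10 compared between KO ocular and KO skin, 5 were higher (10.7%) and 3 lower (10.6%). By clusters 11 of 15 were lower in KO skin than in WT skin (background 7.4%), and 9 of 13 were higher in KO ocular than in KO skin (9.36%). The class held 58, 174 and 67 cells, and whether the same kinds of vessel were sampled was not tested.

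**Figure D4:**
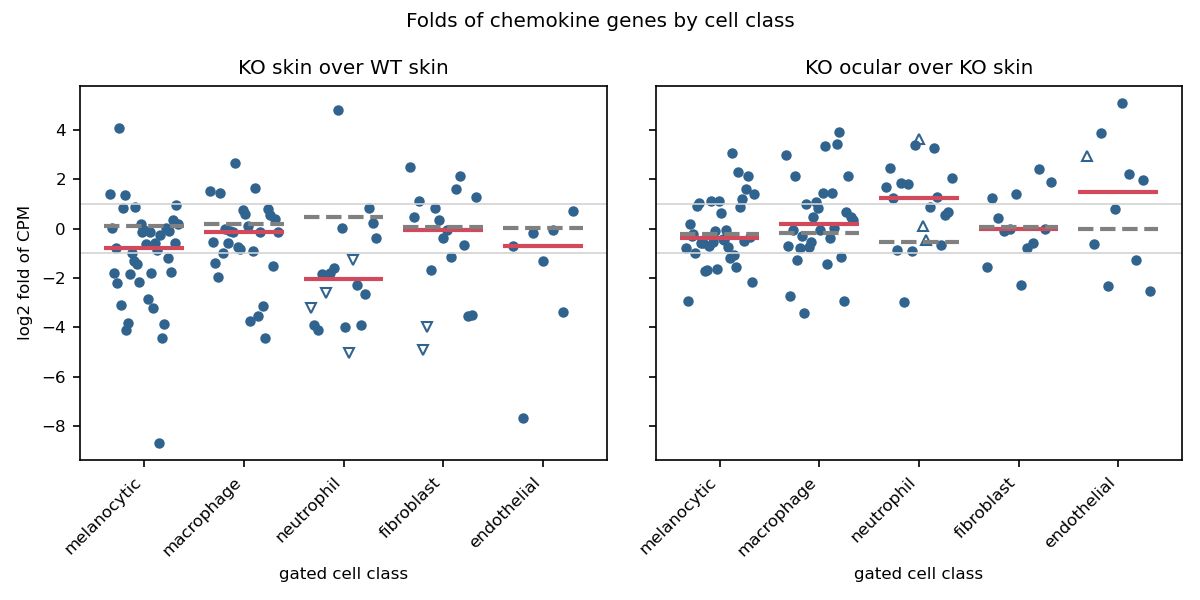
Log2 ratio of CPM of every member with at least 20 UMIs in the 2 matrices together, by gated class, for KO skin over WT skin (left) and KO ocular over KO skin (right). Circles are ratios, open triangles bounds against a 3-UMI floor, red lines member medians, dashed grey lines medians of all genes, and thin lines mark 2-fold. The member median lies farthest below that of all genes in neutrophils on the left and above it there on the right.

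Melanocytic cells carried little of the family. In WT skin 2 members reached 50 CPM, Cxcl2 at 183.7 and Ccl3 at 88.9, and in KO skin and KO ocular none did. These levels were 0.607% and 0.777% of those in neutrophils of the same matrix. The neutrophil genes S100a8, Il1b and Acod1 stood in the same melanocytic cells at 0.180%, 0.352% and 0.452% of their neutrophil level. In KO skin Cxcl2 and Ccl3 were at 0.418% and 0.686%, against 0.0297% for S100a8, 0.0825% for Il1b and 0.175% for Acod1. In KO ocular they were at 0.213% and 0.401%, against 0.132%, 0.165% and 0.190%. S100a8 is a marker of the neutrophil gate, and cells that qualified for several classes were left out, which could hold its share down here. Cxcl2, Ccl3 and Ccl4 in melanocytic cells thus went with the neutrophil level from matrix to matrix, and the part of free RNA in them was not tested.

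Of 39 members compared in melanocytic cells of KO skin and WT skin, 17 were at least 2-fold lower (background 14.5%) and 3 higher (16.3%). The median ratio was 0.583, against 1.09 for all genes. Ccl2, Ccl3, Ccl4, Ccl5, Ccl7, Ccl9, Ccr1, Ccrl2, Cxcl1, Cxcl2, Cxcl3 and Cxcr2 were among those lower. Between KO ocular and KO skin, 9 of 36 were higher in KO ocular (8.44%) and 9 lower (15.6%).

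3 low members are given by themselves. Cxcl15 was lower in KO skin than in WT skin, as the members above were, while Ccl20 and Ccl25 were higher. Cxcl15, a mouse neutrophil attractant first known from lung epithelium, stood at 11.05 CPM in melanocytic cells of WT skin from 702 UMIs, 0.0268 in KO skin from 2 UMIs and 0.229 in KO ocular from 19. The ratio of WT skin to KO skin was 412 (95% interval 114 to 3408), and it ran from 262 to 413 over all settings. Ccl20, the ligand of Ccr6, stood at 0.110, 1.85 and 1.504 CPM, 16.8-fold higher in KO skin than in WT skin (7.94 to 42.6), from 7 and 138 UMIs. Ccl25 stood at 8.27, 14.7 and 12.6 CPM, 1.78-fold higher in KO skin (1.60 to 1.97). For these 3 genes KO skin and KO ocular lay on the same side of WT skin, which was not particular to them. In melanocytic cells Cxcl2 stood at 183.7, 8.49 and 41.6 CPM in WT skin, KO skin and KO ocular. Ccl3 stood at 88.9, 5.18 and 9.89 CPM and Ccl4 at 37.3, 2.60 and 5.38.

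In the matrix labelled WT ocular the same classes carried a related set, read by another assay and so given apart. Neutrophils there had Cxcl2 at 6196 CPM, Ccl4 at 1563, Ccl3 at 669.2 and Cxcl3 at 489.4. Macrophages had Ccl2 at 1931 CPM, Ccl12 at 1283, Ccl7 at 1188 and Ccl8 at 1030, so these 4 stood above Cxcl2 at 721.9. Fibroblasts had Ccl2 at 1506 CPM, Ccl11 at 600.4, Cxcl5 at 571.0 and Ccl7 at 548.5. Endothelial cells had Cxcl2 at 258.5 CPM, which was 4.17% of the neutrophil level, and Cxcl12 at 171.0. Melanocytic cells had Cxcl2 at 135.3 CPM, 2.18% of the neutrophil level, and no other member above 50 CPM. The neutrophil marker S100a8 stood at 1.10% of its neutrophil level in those melanocytic cells and at 1.68% in the endothelial cells. Among the receptors that passed 50 CPM were Ccr1 at 138.3 CPM and Cxcr2 at 53.8 in neutrophils, Ccr1 at 69.7 in macrophages and Cxcr4 at 62.2 in endothelial cells.

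Lymphoid and dendritic cells fell outside the 5 classes and were few, so their levels are given as values. Ccl5, a ligand made by T and natural killer cells, stood there at 3805 CPM in 71 cells of WT skin, 2992 in 66 of KO skin, 4264 in 91 of KO ocular and 3887 in 50 of WT ocular. Within the 5 classes Ccl5 never passed 72.9 CPM. Xcl1, which draws cross-presenting dendritic cells, stood at 684.3 CPM in T and natural killer cells of KO skin from 78 UMIs. It stood at 195.7 CPM in WT skin, 41.9 in KO ocular and 209.8 in WT ocular, from 12 to 17 UMIs. Cxcr6 stood in the same class at 477.1, 219.3 and 377.1 CPM in WT skin, KO skin and KO ocular. B and plasma cells carried Cxcr5, the receptor for Cxcl13, at 630.5, 459.5 and 262.4 CPM from 16 to 30 UMIs. The 26 dendritic cells of KO ocular carried Ccl22 at 911.0 CPM, Ccr7, which takes them to lymph nodes, at 1279 CPM, and Cxcl16 at 979.4 CPM.

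3 lists gave the other genes of the pathway. Of 10 chemokines and receptors with other names, the scavenging receptors Ackr1 and Ackr3 were mainly endothelial. Ackr1 stood there at 186.1 CPM in WT skin, 20.6 in KO skin and 267.0 in KO ocular, and Ackr3 at 130.3, 123.7 and 146.8. Pf4, or Cxcl4, stood in macrophages at 271.8, 323.9 and 509.5 CPM. Mif, a cytokine that binds Cxcr2, Cxcr4 and Cd74, had its highest level in melanocytic cells of each of these matrices, at 425.6, 316.0 and 464.6 CPM. It was thus higher there than any of the 58 members. Cd74 stood in macrophages at 589.4, 2320 and 707.4 CPM, highest in KO skin. Of 13 measured genes of the receptor signalling list in neutrophils, 8 were at least 2-fold higher in KO skin than in WT skin, among them Gnai2 at 922.1 against 280.7 CPM and Rac2 at 2220 against 720.2, and none was lower. That is the direction opposite to the ligands, and 26.2% of all genes in the class were higher. In macrophages 3 of 16 genes of that list were higher, Dpp4, Gnai2 and Grk3, and 1 was lower, Rgs1. Of 14 inducers there, Il1a and Il1b were lower and Irf1 higher. Among all genes of that comparison 10.1% were higher and 5.39% lower.

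In culture, the knockout lines carried less Bap1 RNA in every library. Normalised reads of Bap1 were 4450 and 4392 in the parental cultures and 359 to 1193 in the 8 knockout cultures. Only 8 members were in the deposited table of 13202 genes: Ccl6, Ccl20, Ccl25, Ccl27a, Ccl28, Cx3cl1, Cxcl15 and Ccr10. None of the inflammatory ligands Cxcl1, Cxcl2, Cxcl3, Ccl2, Ccl3 or Ccl4 was among them. Normalised reads were recovered from the stabilised values, and log2 differences are on the stabilised scale, which understates the change of low genes. One member, Ccl25, had a mean at least 1 above the lowest value and was tested among 10803 genes.

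Parental cultures had 244.9 and 256.1 normalised reads of Ccl25. Clone 1 had 369.6 and 388.5, clone 2 had 368.3 and 363.1, clone 3 had 249.9 and 245.0, and clone 4 had 255.9 and 291.3. Clones 1 and 2 lay above the parental line without overlap, and the cultures of clones 3 and 4 reached down to it. The difference in clone 2 was +0.36 ± 0.10 (SE, limma, Benjamini-Hochberg adjusted p = 0.020), past the threshold of 0.05 as for 26.1% of genes, with 1 of 1 members called. In clone 1 it was +0.40 ± 0.10 and just missed the threshold (limma adjusted p = 0.053, background 3.50%). By DESeq2 on the recovered reads it passed (adjusted p = 0.016), by edgeR it did not (0.069). In clone 3 it was -0.01 (limma adjusted p = 0.94, background 39.8%) and in clone 4 +0.08 (0.55, background 36.5%). The call in clone 2 was lost when either parental culture or either culture of clone 2 was left out. The clones differed from each other (limma F test, adjusted p = 0.013, background 44.5%), a call lost without either culture of clone 3. With the clone as the unit, the change was +0.21 ± 0.23 (limma adjusted p = 0.82), and 0% of genes passed by limma, 671 of them at an unadjusted p under 0.05. edgeR called 0 genes and DESeq2 33 in that comparison, and no member.

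The other 7 members lay below the filter, so their tests come from a fit without it, over 13202 genes. Cx3cl1 had 76.2 and 114.4 normalised reads in parental cells. It had 36.8 and 29.3 in clone 1 and 24.8 and 19.6 in clone 2, then 14.6 and 28.9 in clone 3, with 11.5 and 11.4 in clone 4. All 8 knockout cultures lay below both parental ones. The adjusted p by limma was 0.028, 0.0015, 0.00086 and 0.00022 in clones 1 to 4. In that fit 3.80%, 26.1%, 37.4% and 34.4% of genes passed, and 1, 3, 3 and 3 of the 8 members. edgeR gave 0.062 in clone 1. With the clone as the unit the change was -0.70 ± 0.16, with a limma adjusted p of 0.73, and 0% of genes passed.

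Cxcl15 was the most variable member in culture. Parental cells had 131.5 and 95.9 normalised reads of it and clone 1 had 460.2 and 71.0. Clone 2 had 27.4 and 6.24, clone 3 had 1.05 and 1.16, and clone 4 had 0 in both cultures. Clone 1 overlapped the parental line, and clones 2, 3 and 4 lay below it. Without the filter, limma gave adjusted p = 0.074 for clone 2, 0.012 for clone 3 and 0.0073 for clone 4. On the recovered reads, clone 2 had 0.035 by edgeR and 0.0013 by DESeq2. In the tumours, melanocytic cells of WT skin had 702 UMIs of Cxcl15 and those of KO skin 2.

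Ccl20 had 3.81 and 1.76 normalised reads in parental cells and 12.4 and 21.4 in clone 2. Its adjusted p there without the filter was 0.049 by limma, 0.053 by edgeR and 0.147 by DESeq2. Its 6 other knockout cultures lay between 0 and 8.10. Ccl6 had 12.4 and 9.68 reads in parental cells and 0 in both cultures of clone 4 (limma adjusted p = 0.0038). Clone 3 had 3.14 and 0 reads of it (adjusted p of 0.018 by limma, 0.043 by edgeR and 0.087 by DESeq2). Without the filter 4 members differed among the clones, Ccl6, Ccl20, Ccl25 and Cxcl15 (background 42.4%). Ccl27a, Ccl28 and Ccr10 had at most 45.4 normalised reads in any culture, and none passed the threshold in any clone by limma without the filter.

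**Figure D5:**
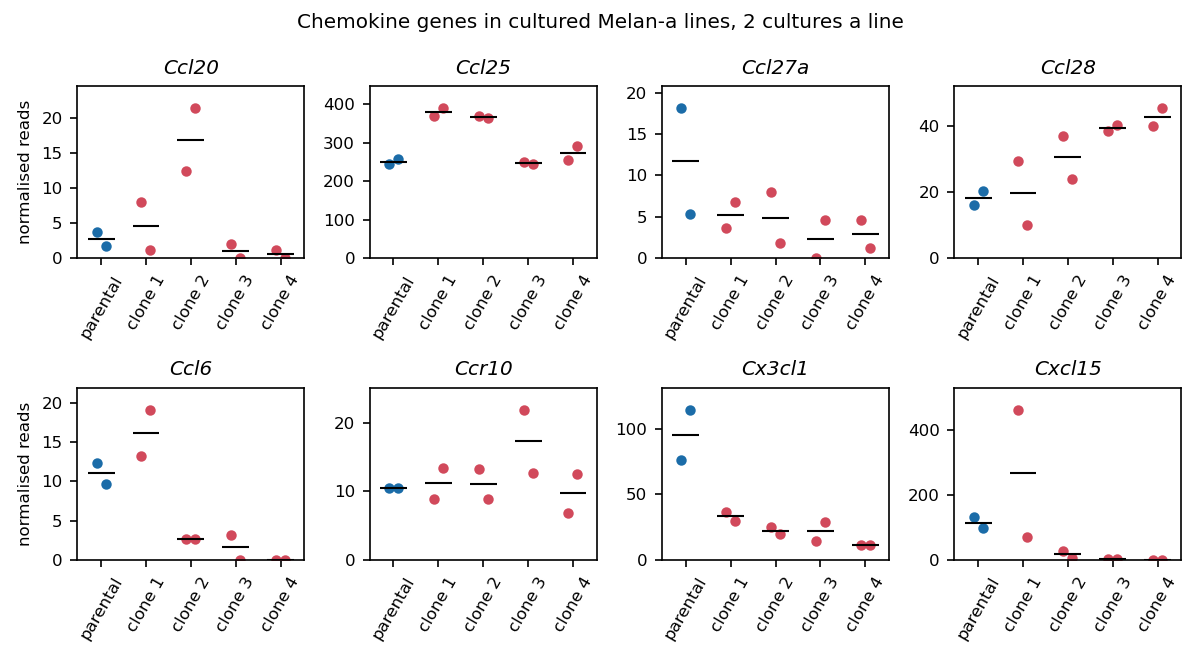
Normalised reads of the 8 members in the bulk table, 2 cultures a line (points) and their mean (line), in the parental line (blue) and knockout clones 1 to 4 (red); each axis starts at 0 with its own scale. Cx3cl1 is lower in all 4 clones, Cxcl15 is 0 in clone 4, and Ccl25 is higher in clones 1 and 2.

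In the cultured lines the receptor signalling list had 9 tested genes. Arrb1, a beta-arrestin, was lower in all 4 clones, and Grk2, a receptor kinase, was higher in clones 2, 3 and 4. Of 9 tested inducers, Stat3 was lower in all 4 clones, and Nfkbia and Irf1 were lower in clones 2 and 3. Rela was higher in clones 2 and 3. Of all 10803 genes, 3.50%, 26.1%, 39.8% and 36.5% passed in clones 1 to 4 in either direction. Of the receptor list, 0, 2, 2 and 2 genes were higher and 1, 1, 2 and 1 lower. Of the inducers, 0, 1, 3 and 0 were higher and 1, 4, 4 and 2 lower. With the clone as the unit, none of these 18 genes passed.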

How the data were processed

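The authors deposited raw UMI counts per gene and barcode for 4 tumour matrices, made with Cell Ranger 8.0.0 or, for the matrix labelled WT ocular, 7.0.0, per the file headers. The submitters' processing notes name the builds GRCm38 and mm10. They also deposited variance-stabilised values on a log2-like scale for 10 bulk libraries and 13202 genes, per the labels and the file header. These gave whole reads for 100% of values within 0.01 of a whole number, with totals of 30.8 to 46.8 M reads per library and size factors of 0.793 to 1.36.

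Cells of at least 500 UMIs entered a class on at least 3 markers and a minimum share of marker UMIs: 200 per 10000 for melanocytic cells (120 in WT ocular), 50 for neutrophils and fibroblasts and 20 for the others. Cells that qualified for several classes were left out, no doublet caller was run, and cells with platelet markers were left out after the values were seen. Summed UMIs were scaled to CPM. A ratio needed 20 summed UMIs in the pair of matrices, and "called" means past 2-fold, since 1 matrix a group allows no test.

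Bulk values were tested with limma 3.58.1 (R 4.3.3) with a mean-variance trend over 5 groups, for genes with a mean at least 1 above the lowest value of 6.61, at a Benjamini-Hochberg adjusted p of 0.05. The clone as the unit took 5 line means, with the single parental value assumed to vary like the clones. edgeR 4.0.16 and DESeq2 1.42.0 on the recovered reads, other gates and clusters (scikit-learn 1.9.0) were alternatives. The ratio code was tested on simulated data. Members named with values reached 50 CPM in a class or were in the bulk table; Cxcl15, Ccl20, Ccl25 and those outside the 5 classes were chosen after their values were seen. The members and lists were chosen with earlier results of these data known. Exome and genome sequencing was not analysed here, and some genes are not reported here by name, though they remain in the counts.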

Additional observations from a re-analysis of the deposited data

Results flagged for a closer look

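The change from the parental line differed among the 4 knockout clones for 4 members, by the limma F test with Benjamini-Hochberg adjustment over all genes. Ccl25 had an adjusted p of 0.01300 among the filtered genes, with higher levels in clones 1 and 2 only. Without the filter on low values, Cxcl15 had an adjusted p of 0.003914, with its lowest levels in clones 3 and 4. Ccl6 had 0.004716, with at most 3.14 normalised reads in clones 2, 3 and 4, and Ccl20 had 0.01565, with its highest levels in clone 2. Among all genes 44.5% passed this test with the filter and 42.4% without it, so a difference among clones was common in these lines.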

How the results depend on the processing

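In culture, the number of members called was 0 in clone 1, 1 in clone 2, 0 in clones 3 and 4 and 1 among clones. Clone 1 gave 1 under quantile normalisation, without the filter, under the replicate block and by DESeq2, and 2 by DESeq2 without the filter. Clone 2 gave 3 without the filter by limma, edgeR and DESeq2. Clone 3 gave 3 by limma and edgeR without the filter and 2 by DESeq2. Clone 4 gave 1 under quantile normalisation and 3 by each tool without the filter, and the count among clones was then 4. Leaving out each library in turn gave 0 to 1 in clone 1 (1 without either clone 4 library), 0 to 1 in clone 2 (0 without either parental or either clone 2 library) and 0 to 1 among clones (0 without either clone 3 library). With the clone as the unit the count was 0 throughout, and no paired fit exists for it.

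The replicate block gave 1, 1, 0 and 0 members in clones 1 to 4 and 1 among clones. The numbers were not taken as pairing the samples, since not every pair of lines had correlated deviations. Among the clones 5 of 6 pairs had correlations of 0.110 to 0.727, while clones 3 and 4 had -0.0256 and the 4 pairs with the parental line -0.128 to -0.0739.

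In the tumours, classes from clusters in place of the gate gave 2 members led by macrophages and 0 by endothelial cells. Clusters were named by the markers that stood highest over the matrix mean. Some names were at odds with the tissue, as for 1457 cells of KO skin named photoreceptor and 1227 of KO ocular named platelet. The cluster classes are thus a rough alternative. The counts that follow have the share of all genes in brackets. By clusters, 2 of 18 were higher in neutrophils of KO skin than of WT skin (19%). In macrophages of KO skin 11 of 31 were lower (8.71%), and in its endothelial cells 11 of 15 (7.4%). In KO ocular against KO skin, 5 of 20 were lower in neutrophils (52.2%) and 17 of 25 higher in fibroblasts (12.8%). In endothelial cells 9 of 13 were higher (9.36%) and 1 lower (9.59%). Without the cells of highest UMIs, 3 of 8 were higher there (10.2%). The stricter gate gave 2 of 18 higher in neutrophils (27.2%) and 5 of 40 higher in melanocytic cells (16.2%) of KO skin against WT skin. It gave 4 of 14 lower in fibroblasts of KO ocular against KO skin (14.1%). The looser gate gave 2 of 19 lower in neutrophils of KO ocular than of KO skin (29.4%), and 1000 UMIs gave 4 of 19 (31.9%). Of 389 ratios of single genes under alternatives, 379 kept their direction and 10 turned. Turned ratios of KO skin to WT skin by clusters were 0.929 for Cxcr2 in neutrophils, and 1.16 for Ccl7 and 1.27 for Ccl6 in macrophages; Ccl6 was 1.01 with the stricter gate. In fibroblasts without the cells of highest UMIs, Cxcl5 was 0.537 for KO skin to WT skin, and for KO ocular to KO skin Cxcl5 was 1.53 and Ccl2 0.842. The Cxcl5 ratio of KO ocular to KO skin was 1.17 with the stricter gate and 2.51 by clusters, where Ccl11 was 1.18. The cause was not tested. Small classes and the depth of neutrophils limit what low members can show.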
